A study of Homo sapiens with 38 samples.

Results

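A set of 7 transcription factor genes linked to formative pluripotency was followed through the capacitation of naive human cells: OTX2, SALL2, SOX11, SOX3, FOXD3, TCF7L1 and POU3F1. They were chosen by name, as the 7 rows of the count table with these symbols, of 57133 genes in all. 6 of the 7 had enough counts to be tested among 16674 genes, and POU3F1 had not. Formative pluripotency is the state between the naive cells of the early epiblast and primed cells that are ready for lineage choice. In it, factors that hold the naive programme give way to others that prepare enhancers and genes of the later epiblast. OTX2 is a homeodomain factor, SOX11, SOX3 and TCF7L1 carry an HMG box, FOXD3 is a forkhead factor, SALL2 has zinc fingers, and POU3F1 (also called OCT6) has a POU domain.

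RNA was measured by 3′ tag sequencing in 38 libraries of Shef6, an established human embryonic stem cell line, in 19 groups of 2 libraries. All groups, those on Geltrex included, came from naive cells that had been adapted to feeder-free growth on a serum coating. Naive cells were kept in PXGL, which holds the MEK inhibitor PD0325901, the tankyrase inhibitor XAV939, the PKC inhibitor Gö6983 and LIF, either on wells coated with serum or on Geltrex (a matrix of basement membrane proteins). For capacitation they were seeded on Geltrex without PXGL, in N2B27 basal medium or in the commercial media E8 or mTeSR, both of which supply FGF2 and TGFβ family signals. Experiment Ex1 held naive cells on either surface, cells after 2, 3, 4, 6 and 8 days in N2B27 or E8, and cells after 4, 6 and 8 days in mTeSR. The other experiment, Ex2, held naive cells on Geltrex and cells of day 4 in N2B27 alone, with added XAV939 (XAV), or with added XAV939, FGF2 and Activin A (FAX). No group was sampled at day 1, and mTeSR was not sampled before day 4. All libraries came from 1 cell line, and the study calls them technical replicates in some places and biological replicates in another, so p-values measure the spread between libraries, which may be technical.

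Library totals ranged from 3038046 to 5612354 counts, with a median of 4427277. Levels are given as CPM, which are counts on a common scale of library size after TMM scaling, and the 3 counts taken as the floor amounted to 0.520 to 1.06 CPM, which covers counting error only. A gene was called where edgeR's quasi-likelihood test gave a Benjamini-Hochberg adjusted p under 0.05 and an absolute log2 fold change above 1. Every comparison against naive cells used the same 6 naive libraries unless stated, so these comparisons share their controls. Cells labelled as naive had high levels of naive markers, which included DNMT3L at 324 ± 49.9 CPM, TFCP2L1 at 249 ± 17.0 CPM and KLF17 at 77.5 ± 37.5 CPM (SD, n = 6). In bulk samples, fewer cells that carry a transcript and less of it per cell cannot be told apart. The libraries of E8 day 3, N2B27 days 2 and 3 and E8 day 8 differed more from their partners than the others did, with chi-square values per gene of 8.02 to 10.2 against 1.35 to 4.01 elsewhere.

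Of the 6 tested factors, 4 rose by day 2 in both N2B27 and E8: SOX11, SOX3, FOXD3 and SALL2. OTX2 was first called at day 3 in N2B27 and E8, close to the fold limit before that in N2B27, and TCF7L1 was called only at day 8, in E8 and mTeSR. In N2B27 the number called higher than naive cells was 4, 5, 4, 5 and 5 over days 2, 3, 4, 6 and 8, while 9.86%, 9.78%, 12.5%, 16.4% and 16.9% of all tested genes were called higher. In E8 the numbers were 4, 5, 5, 5 and 6 of the 6 factors, and the shares of all genes were 13.9%, 11.8%, 13.6%, 15.8% and 18.2%. In mTeSR 5, 5 and 6 factors were called at days 4, 6 and 8, against 12.8%, 15.7% and 16.9% of all genes. No factor was called lower at any of these days. The median log2 fold change of the 6 factors was 2.10 at day 2 and 2.89 at day 8 in N2B27, 1.35 and 3.28 in E8, and 3.14 at day 4 and 3.01 at day 8 in mTeSR, while the median of all tested genes lay between -0.03 and 0.02 in these media and days.

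**Figure D1:**
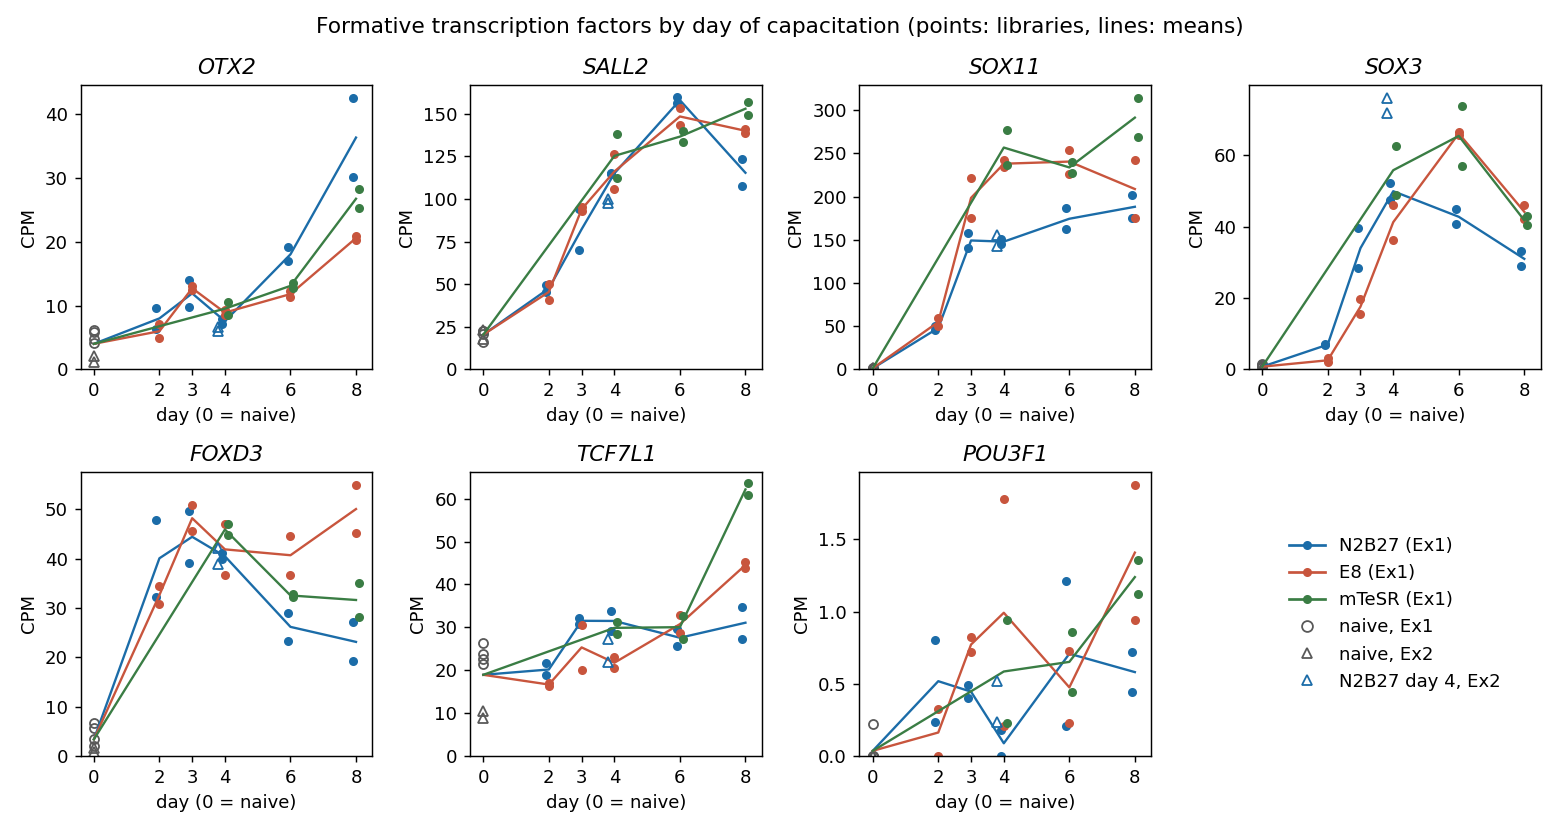
Levels of the 7 factors in CPM (vertical axes) by day of capacitation (horizontal axes), with a point for each library, triangles for Ex2, and lines from the mean of the 6 naive libraries through the Ex1 means of N2B27, E8 and mTeSR. SOX11, SOX3, FOXD3 and SALL2 leave the naive level by day 2, OTX2 climbs most between days 4 and 8, TCF7L1 reaches 63.5 CPM in mTeSR at day 8, and POU3F1 stays under 2 CPM.

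SOX11, a SoxC factor known from neural progenitors, had the largest fold change of the 6 against the 6 naive libraries in each medium and day. Against naive cells of the same experiment SOX3 had the larger value at day 4 in N2B27, XAV and FAX, where it stood against naive libraries of Ex2 with 1 count. The naive libraries held 0.673 to 1.75 CPM, with a median of 1.60. In N2B27 the 2 libraries of days 2, 3, 4, 6 and 8 in Ex1 held 45.8 and 50.3, 158 and 140.2, 145 and 151, 162 and 187, and 202 and 175 CPM. In E8 they held 59.1 and 50.9, 175 and 222, 234 and 242, 227 and 255, and 175 and 243 CPM. Every library after day 0 lay above every naive library, and most of the rise was made by day 3. In mTeSR the values at days 4, 6 and 8 were 237 and 277, 228 and 240.1, and 269 and 314 CPM. Against naive cells the log2 fold change was 5.15 ± 0.19 (SE) at day 2 in N2B27 (35.4-fold; edgeR adjusted p = 5.65e-21), 7.12 ± 0.16 at day 8 in N2B27 (139-fold; adjusted p = 4.09e-27) and 7.75 ± 0.16 at day 8 in mTeSR (215-fold; adjusted p = 3.94e-28). In N2B27 the change from day 2 to day 3 was 1.64 ± 0.14, and later steps in N2B27 were not called. SOX11 is a single-exon gene at chr2:5692384-5701385 on the plus strand (GENCODE release 44, GRCh38), and a long non-coding RNA on the same strand, ENSG00000242540, overlaps 5166 of its bases.

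SOX3, an X-linked relative of SOX2, had its highest mean at day 4 or 6 and a lower one at day 8. It is a single-exon gene at chrX:140502985-140505069 on the minus strand. Naive libraries held 0 to 1.57 CPM, with a median of 0.770, and those of Ex2 held 1 and 0 counts. The pairs in N2B27 were 6.80 and 7.12, 28.3 and 39.6, 52.3 and 47.5, 44.8 and 40.7, and 33.0 and 28.9 CPM from day 2 to day 8. The pairs in E8 were lower at the start and higher later, at 3.18 and 1.97, 15.6 and 19.6, 36.3 and 46.1, 65.7 and 66.5, and 42.2 and 46.2 CPM. mTeSR gave 48.9 and 62.6, 57.1 and 73.7, and 40.4 and 43.1 CPM. The highest mean came at day 4 in N2B27 and at day 6 in E8 and mTeSR, and the day 8 mean was 62.1%, 66.8% and 63.9% of it. The log2 fold change against naive cells was 2.98 ± 0.38 at day 2 in N2B27 (adjusted p = 1.35e-07) and 1.55 ± 0.55 at day 2 in E8 (adjusted p = 0.0204), reaching 6.13 ± 0.24 at day 4 in N2B27 and 6.23 ± 0.26 at day 6 in E8. Without E8 day 2 replicate 1, SOX3 was first called in E8 at day 3. From day 6 to day 8 SOX3 had a log2 fold change of -0.58 ± 0.16 in E8 (adjusted p = 0.0467) and, in mTeSR, of -0.65 ± 0.17 (adjusted p = 0.0295), both under the fold limit, and -0.47 ± 0.17 in N2B27 (adjusted p = 0.139).

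FOXD3, a forkhead factor known from the epiblast and the neural crest, was the first to pass the middle of its rise in N2B27 and E8. Naive libraries held 0.830 to 6.77 CPM, with a median of 2.72, and the pair on serum was the highest (5.76 and 6.77 CPM). N2B27 libraries held 47.8 and 32.3, 39.1 and 49.7, 39.9 and 41.0, 29.0 and 23.4, and 19.2 and 27.1 CPM from day 2 to day 8. E8 libraries held 30.8 and 34.5, 45.5 and 50.8, 36.8 and 46.9, 36.7 and 44.6, and 45.1 and 54.9 CPM over the same days. In N2B27 the level at day 8 was 52.1% of the day 3 mean, whereas in E8 the highest mean was that of day 8. mTeSR libraries held 47.1 and 44.7 CPM at day 4, 32.3 and 32.8 at day 6, and 28.2 and 35.0 at day 8. Their mean was the highest of the 3 media at day 4 and lay between the other two at days 6 and 8. Against naive cells FOXD3 rose by 3.48 ± 0.26 on the log2 scale at day 2 in N2B27 (adjusted p = 7.93e-13) and by 3.18 ± 0.28 in E8 (adjusted p = 4.9e-11). At day 8 N2B27 had 2.69 ± 0.27, E8 had 3.79 ± 0.25 and mTeSR had 3.13 ± 0.27.

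FOXD3 is a single-exon gene at chr1:63322567-63325128 on the plus strand, and its antisense RNA FOXD3-AS1 overlaps 1875 of its bases from the minus strand. A listed start of FOXD3-AS1 lies 109 bases upstream of the start of FOXD3. The 108 bases between both starts (chr1:63322459-63322566, plus strand, RefSeq promoter table of GRCh38.p14) are printed because both RNAs moved together, with the 10 CpG dinucleotides in capitals and a GC content of 60.2%:
FOXD3 and FOXD3-AS1 shared start region: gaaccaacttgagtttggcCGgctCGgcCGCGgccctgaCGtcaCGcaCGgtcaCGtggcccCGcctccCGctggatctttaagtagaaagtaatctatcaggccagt
FOXD3-AS1 had the most similar profile to FOXD3 of 11284 genes, with a Pearson r of 0.975 over the means of 16 combinations of medium and day. Its level was 4.58 ± 2.53 CPM in naive cells (n = 6), 66.3 ± 34.1 CPM at day 2 in N2B27, 34.8 ± 8.05 CPM at day 8 in N2B27 and 74.2 ± 6.33 CPM at day 8 in E8 (SD, n = 2). Whether counting used strand is not given in the sources used here, so reads from FOXD3 and from FOXD3-AS1 cannot be told apart.

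SALL2, a zinc finger factor of the Spalt family, was present in naive cells and had its highest mean at day 6 in N2B27 and E8. Naive libraries held 15.9 to 23.2 CPM, with a median of 21.7. Pairs in N2B27 were 45.6 and 49.4, 70.1 and 94.3, 115 and 115, 159.6 and 156, and 123 and 107 CPM at days 2, 3, 4, 6 and 8. Pairs in E8 were 50.2 and 40.7, 92.7 and 95.2, 106 and 126, 143 and 153, and 139 and 141 CPM. All of them lay above the naive range, and the media stayed close to each other until N2B27 came down to 73.0% of its highest mean at day 8. In mTeSR days 4, 6 and 8 gave 112 and 138, 133 and 139.9, and 149 and 157 CPM. The log2 fold change against naive cells was 1.21 ± 0.13 at day 2 in N2B27 (adjusted p = 6.24e-09), 1.14 ± 0.14 at day 2 in E8 (adjusted p = 4.82e-08) and 2.94 ± 0.12 at day 6 in N2B27 (adjusted p = 1.31e-20). Both day 2 values lay close to the fold limit of 1, and without E8 day 2 replicate 1 the first call in E8 was at day 3. SALL2 has 2 exons at chr14:21521080-21537216 on the minus strand, and the antisense RNA ENSG00000257096, which has no row in the table, overlaps 1578 of its bases.

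OTX2, which in the mouse directs the move from the naive to the formative enhancer programme, rose late and with a dip at day 4. Its naive level depended on the experiment, with 4.21 to 6.13 CPM in Ex1 and 2.05 and 1.11 CPM in Ex2. N2B27 gave 9.60 and 6.41, 9.84 and 14.0, 7.97 and 7.17, 19.2 and 16.9, and 42.5 and 30.2 CPM over the sampled days. E8 gave 7.08 and 4.92, 12.5 and 13.0, 8.56 and 9.27, 11.4 and 12.3, and 20.2 and 21.0 CPM. In both media the day 4 libraries lay below both day 3 libraries, and the day 8 libraries above all earlier ones. The step from day 3 to day 4 had a log2 fold change of -0.67 ± 0.22 in N2B27 (adjusted p = 0.0931) and -0.51 ± 0.22 in E8 (adjusted p = 0.288), and neither passed the test. mTeSR gave 8.47 and 10.6, 13.5 and 12.7, and 25.2 and 28.3 CPM at days 4, 6 and 8.

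Against naive cells OTX2 was called in N2B27 at day 3 (log2 fold change 1.50 ± 0.27, adjusted p = 4.66e-05), not at day 4 (0.72 ± 0.24, adjusted p = 0.0141), and again at day 6 (2.08 ± 0.25) and day 8 (3.09 ± 0.23, 8.52-fold, adjusted p = 3.75e-13). At day 2 it had 0.93 ± 0.29 in N2B27 (adjusted p = 0.0125) and 0.49 ± 0.34 in E8 (adjusted p = 0.243), under the fold limit in both. Without either Ex1 naive library on Geltrex (1.06 and 1.11) or N2B27 day 2 replicate 2 (1.18), OTX2 was already called at day 2 in N2B27. In E8 it was called from day 3 on, with 1.58 ± 0.27 at day 3, 1.07 ± 0.28 at day 4 (adjusted p = 0.00253) and 2.27 ± 0.25 at day 8, and mTeSR gave 1.17 ± 0.29 at day 4 (adjusted p = 0.00133) and 2.65 ± 0.25 at day 8. These day 4 calls depended on the naive libraries used. With naive cells of the same experiment only, OTX2 had 1.28 ± 0.22 at day 4 in N2B27 (adjusted p = 1.04e-05), while E8 had 0.78 ± 0.21 (adjusted p = 0.00361) and mTeSR 0.87 ± 0.22 (adjusted p = 0.0015). The N2B27 value is the mean of the changes in Ex1 and Ex2, while those of E8 and mTeSR rest on Ex1 alone. In Ex1 the N2B27 day 4 mean of OTX2 was 7.57 CPM over 5.24 in naive cells, below E8 (8.92) and mTeSR (9.53), and in Ex2 it was 6.33 over 1.58 CPM. The first day from which it stayed called thus moved to day 3 in N2B27 (before: day 6) and to day 6 in E8 (before: day 3) and mTeSR (before: day 4). In N2B27 this run rested on a day 4 call from both experiments, while days 3, 6 and 8 were from Ex1. These onset days of the 3 media are therefore not alike, and N2B27 day 4 against naive cells of Ex1 alone was not tested. With naive cells of the same experiment 5 of the 6 factors were called at day 4 in N2B27 (13.2% of all genes), 4 of them in E8 (14.2%), and 4 for mTeSR (13.4%). OTX2 lies at chr14:56799905-56816693 on the minus strand with 5 exons, and its antisense neighbour OTX2-AS1 had at most 0.341 CPM in any group mean.

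TCF7L1, the HMG box factor that represses WNT target genes until β-catenin relieves it, had the smallest log2 fold changes against naive cells of the tested factors at day 8. Its naive level again depended on the experiment, with 21.5 to 26.3 CPM in Ex1 and 10.6 and 8.85 CPM in Ex2. In N2B27 it held 18.8 and 21.6, 32.2 and 30.8, 33.8 and 29.2, 29.6 and 25.6, and 27.3 and 34.9 CPM over the 5 days, and no day was called (0.69 ± 0.22 at day 8, adjusted p = 0.0124). In E8 it held 17.0 and 16.4, 30.7 and 20.0, 20.5 and 23.1, 28.7 and 32.8, and 43.8 and 45.2 CPM. Both E8 libraries of day 6, both of day 8 and 1 of day 3 lay above all naive libraries. In mTeSR it held 28.5 and 31.3, 32.7 and 27.4, and 63.5 and 60.7 CPM. E8 at day 8 had a log2 fold change of 1.20 ± 0.22 (adjusted p = 2.07e-05), and mTeSR one of 1.68 ± 0.21 (adjusted p = 5.29e-08). Against naive cells of Ex1 alone the mTeSR value was 1.40 ± 0.14 and the E8 value 0.92 ± 0.14 (adjusted p = 1.48e-06), so that in E8 5 of the 6 factors were then called at day 8, against 19.3% of all genes. TCF7L1 has 12 exons at chr2:85133392-85310387 on the plus strand.

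POU3F1, a marker of the postimplantation epiblast in the mouse, stayed near the floor. It had 95 counts over all libraries, 0 counts in 7 libraries, 5 of them naive, and more than 3 counts in 13. The highest values were 10 counts (1.87 CPM) in E8 day 8 replicate 1 and 9 counts (1.77 CPM) in E8 day 4 replicate 2. The 6 naive libraries held 1 count in total, and the E8 day 8 pair held 14, a ratio of 37.4 after scaling (exact 95% interval 5.70 to 1583, counting error only). The mTeSR day 8 pair held 9 counts (ratio 31.8, interval 4.41 to 1394) and the N2B27 day 8 pair held 6 (ratio 15.3, interval 1.85 to 702). Differences between the media were not tested. It is a single-exon gene at chr1:38043829-38046793 on the minus strand.

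**Figure D2:**
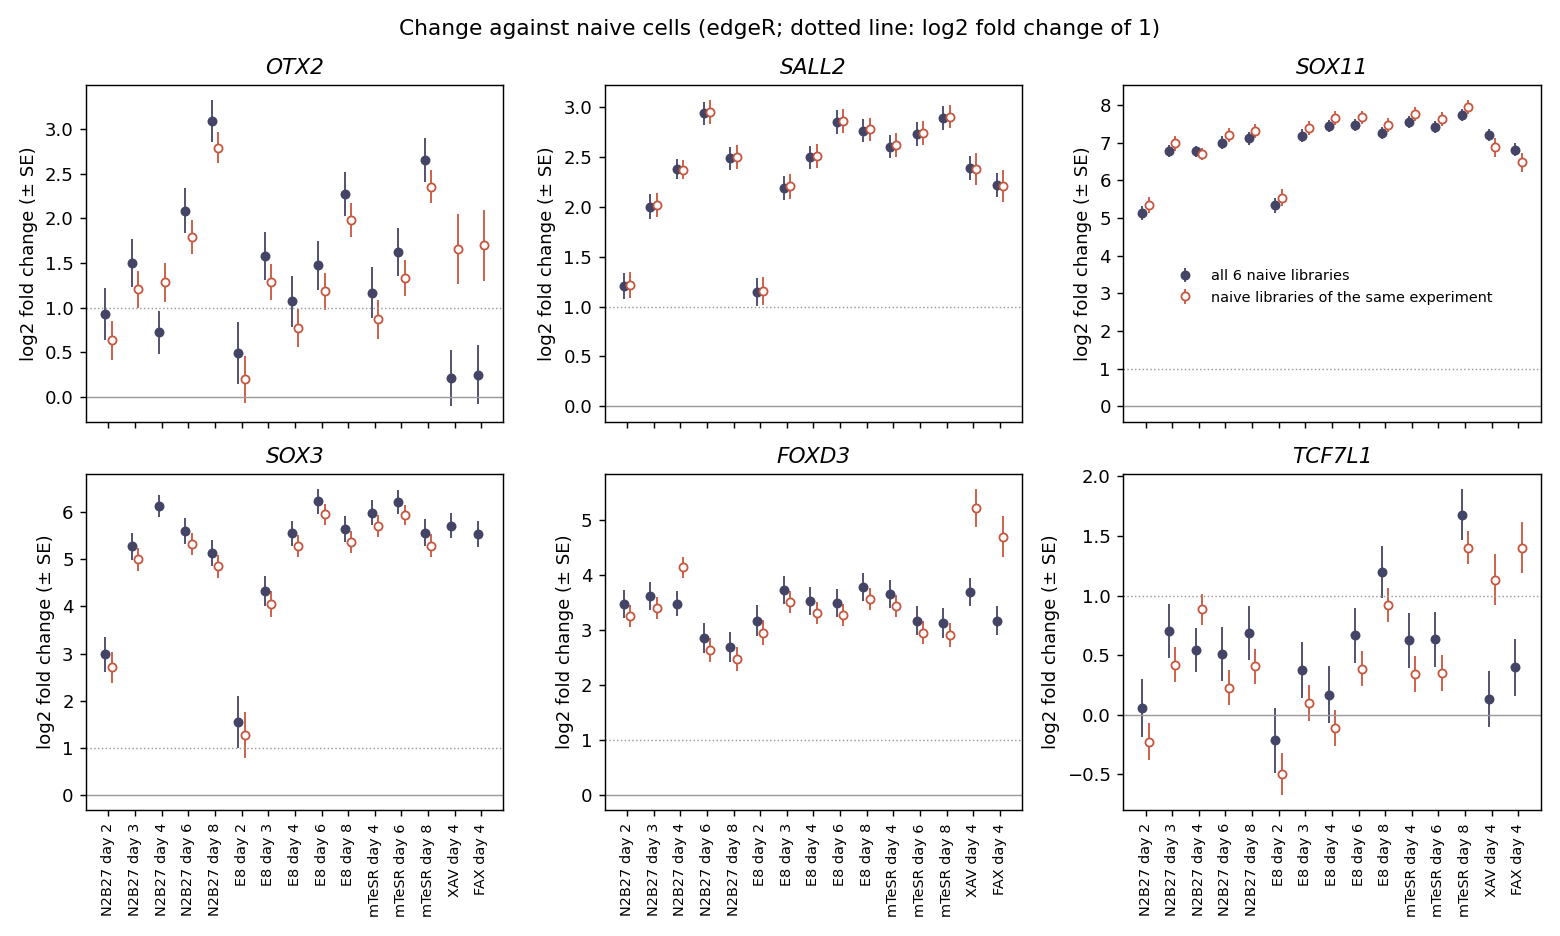
Log2 fold change against naive cells (vertical axes, edgeR, bars ± SE) of the 6 tested factors in each medium and day (horizontal axes), with all 6 naive libraries (filled) or only those of the same experiment (open). Open points are not drawn for SOX3 at day 4 in N2B27, XAV and FAX, where the naive libraries of Ex2 hold 1 count. OTX2 and TCF7L1 move across the dotted line at 1 with the choice of naive libraries, while SALL2, SOX11, SOX3 and FOXD3 stay above it in both.

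The order of onset was also read from the half-rise day, the day at which the straight line between group means first crossed the midpoint between the naive mean and the highest mean of that medium. TCF7L1 in N2B27 was left out because it was never called. In N2B27 FOXD3 came first at day 1.12, followed by SOX11 at 2.46, SOX3 at 2.68, SALL2 at 3.21 and OTX2 at 6.23. In E8 the order was FOXD3 at 1.60, SOX11 at 2.46, SALL2 at 2.80, OTX2 at 2.94, SOX3 at 3.67 and TCF7L1 at 6.14. FOXD3 and SOX11 came first in both media, and SOX3 came before SALL2 in N2B27 and after it in E8. In mTeSR, where the first sample was at day 4, the values were 2.00 for FOXD3, 2.27 for SOX11, 2.35 for SOX3, 2.53 for SALL2, 6.33 for OTX2 and 6.65 for TCF7L1. The value of FOXD3 in mTeSR is set by the gap in sampling.

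Leaving out each library in turn moved the half-rise day of SOX11 in N2B27 between 2.40 and 2.53, of SOX3 between 2.56 and 2.86, of SALL2 between 2.89 and 3.42 and of OTX2 between 5.82 and 6.43. None of these ranges overlapped its neighbour in N2B27 or E8. The ranges of SOX11 (2.10 to 2.46), SOX3 (2.05 to 2.68) and SALL2 (2.25 to 2.88) in mTeSR did overlap, so these neighbours were not separated there. The E8 value of OTX2 rested on the day 3 peak and on the naive level: it was 6.25 with the 4 naive libraries of Ex1 and 6.11 with days 0, 4, 6 and 8 only, both after SOX3 (3.68 and 3.23), so that the order of OTX2 and SOX3 in E8 turned. With days 0, 4, 6 and 8 only, SOX11 (2.02) also came before FOXD3 (2.42) in E8. Before day 2 the line joins the naive mean to the first sample, so half-rise days under 2 depend on that line and not on a sample.

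**Figure D3:**
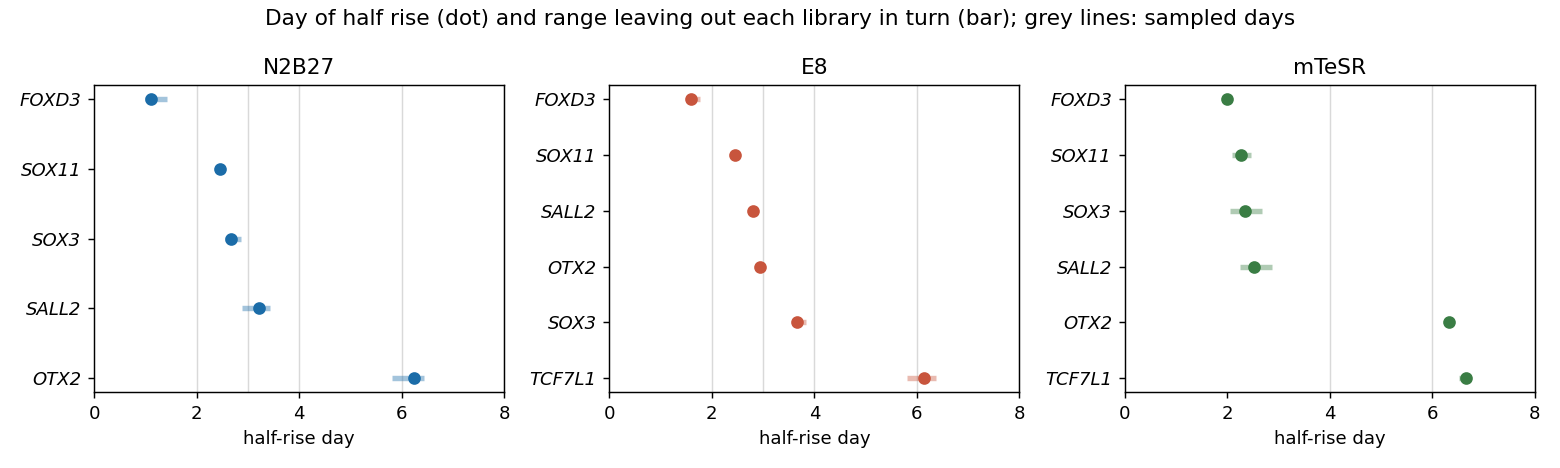
Half-rise day (horizontal axis) of each factor in N2B27, E8 and mTeSR, with bars from the lowest to the highest value on leaving out 1 library and grey lines at the sampled days. FOXD3 is first in N2B27 and E8, SOX3 lies later in E8 (3.67) than in N2B27 (2.68), and OTX2 lies at 2.94 in E8, which becomes 6.25 with the naive libraries of Ex1 alone, against 6.23 in N2B27 and 6.33 in mTeSR.

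Steps between consecutive samples showed where each factor moved. From day 2 to day 3, SOX11 (log2 fold change 1.64 ± 0.14) and SOX3 (2.29 ± 0.22) rose in N2B27, where 2.02% of all genes rose, and SALL2 had 0.80 ± 0.14 (adjusted p = 0.000266), under the fold limit. OTX2 (1.09 ± 0.26), SALL2 (1.05 ± 0.14), SOX11 (1.86 ± 0.15) and SOX3 (2.78 ± 0.32) rose in E8, against 4.32% of all genes. From day 3 to day 4 no factor was called in N2B27 (0.798% of genes) and SOX3 alone rose in E8 (1.22 ± 0.18, adjusted p = 0.000105; 0.69% of genes). OTX2 was the only factor called in the late steps of N2B27, with 1.25 ± 0.21 from day 4 to day 6 (adjusted p = 0.000137; 3.08% of genes) and 1.00 ± 0.19 from day 6 to day 8 (adjusted p = 0.000968; 1.17% of genes). In E8 no factor was called from day 4 to day 6 (1.97% of genes) or from day 6 to day 8 (0.516%), and in mTeSR none from day 4 to day 6 (2.29%). From day 6 to day 8 in mTeSR OTX2 rose by 1.03 ± 0.20 (adjusted p = 0.00248) and TCF7L1 by 1.05 ± 0.16 (adjusted p = 0.000148), while 0.618% of all genes rose. Several of these steps lay close to the fold limit. Without E8 day 2 replicate 2 the step from day 2 to day 3 in E8 was 0.83 for OTX2 and 0.89 for SALL2, and neither was called. The last OTX2 step in N2B27 was not called without N2B27 day 6 replicate 2 or day 8 replicate 1, that in mTeSR without mTeSR day 6 replicate 2 or day 8 replicate 2, and that of TCF7L1 fell to 0.92 without mTeSR day 6 replicate 2.

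The question put next was whether the medium changed the factors at the same day. Between E8 and N2B27, 2 differences were called over the 5 days: SOX3 at day 2 and FOXD3 at day 8. SOX3 was lower in E8 at day 2 by -1.43 ± 0.38 on the log2 scale (adjusted p = 0.0106; 4.55% of genes called in either direction), with 3.18 and 1.97 CPM against 6.80 and 7.12 in N2B27. The pairs did not overlap, but the call was lost without N2B27 day 2 replicate 1 (adjusted p = 0.0524) or E8 day 2 replicate 2 (adjusted p = 0.173). At day 3 SOX3 was still lower in E8 (-0.95 ± 0.19, adjusted p = 0.00211), under the fold limit, and no factor was called (1.68% of genes). SOX11 was higher in E8 at day 4 (0.69 ± 0.13, adjusted p = 0.00075) and TCF7L1 lower (-0.53 ± 0.17, adjusted p = 0.0486), where no factor passed the fold limit (2.49% of genes). At day 6 none was called either (5.28% of genes), with SOX3 at 0.63 ± 0.16 (adjusted p = 0.00697), SOX11 at 0.46 ± 0.13 (adjusted p = 0.0120), FOXD3 at 0.64 ± 0.19 (adjusted p = 0.0216) and OTX2 at -0.61 ± 0.21 (adjusted p = 0.0439). The sign of the SOX3 difference thus turned between day 3 and day 6. At day 8 FOXD3 was higher in E8 by 1.10 ± 0.19 (adjusted p = 9.06e-05; 7.29% of genes), with 45.1 and 54.9 against 19.2 and 27.1 CPM, and the value was 0.87 without N2B27 day 8 replicate 1 and 0.97 without E8 day 8 replicate 2. Under the fold limit at day 8, OTX2 was lower in E8 (-0.81 ± 0.18, adjusted p = 0.00179), and SOX3 (0.51 ± 0.17, adjusted p = 0.0316) and TCF7L1 (0.51 ± 0.16, adjusted p = 0.0240) were higher.

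mTeSR and N2B27 did not differ past the fold limit in any factor at day 4 (1.58% of genes), day 6 (2.62%) or day 8 (3.8%). TCF7L1 came nearest at day 8 (0.99 ± 0.16, adjusted p = 7.75e-05), with 63.5 and 60.7 against 27.3 and 34.9 CPM, and SOX11 was higher in mTeSR at day 4 (0.80 ± 0.13, adjusted p = 0.000204) and day 8 (0.63 ± 0.13, adjusted p = 0.0011). The SOX11 pairs at days 4 and 8 and the TCF7L1 pair at day 8 lay apart from those of N2B27. SOX3 (0.61 ± 0.16, adjusted p = 0.0138) and SOX11 (0.42 ± 0.13, adjusted p = 0.0346) at day 6 and SALL2 (0.41 ± 0.13, adjusted p = 0.0318) at day 8 were also higher in mTeSR, under the fold limit. mTeSR and E8 gave no called factor at day 4 (0.084% of genes), day 6 (1.1%) or day 8 (5.31%), where FOXD3 had -0.66 ± 0.19 (adjusted p = 0.0185), SOX11 0.48 ± 0.13 (adjusted p = 0.00988) and TCF7L1 0.48 ± 0.16 (adjusted p = 0.0365).

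**Figure D4:**
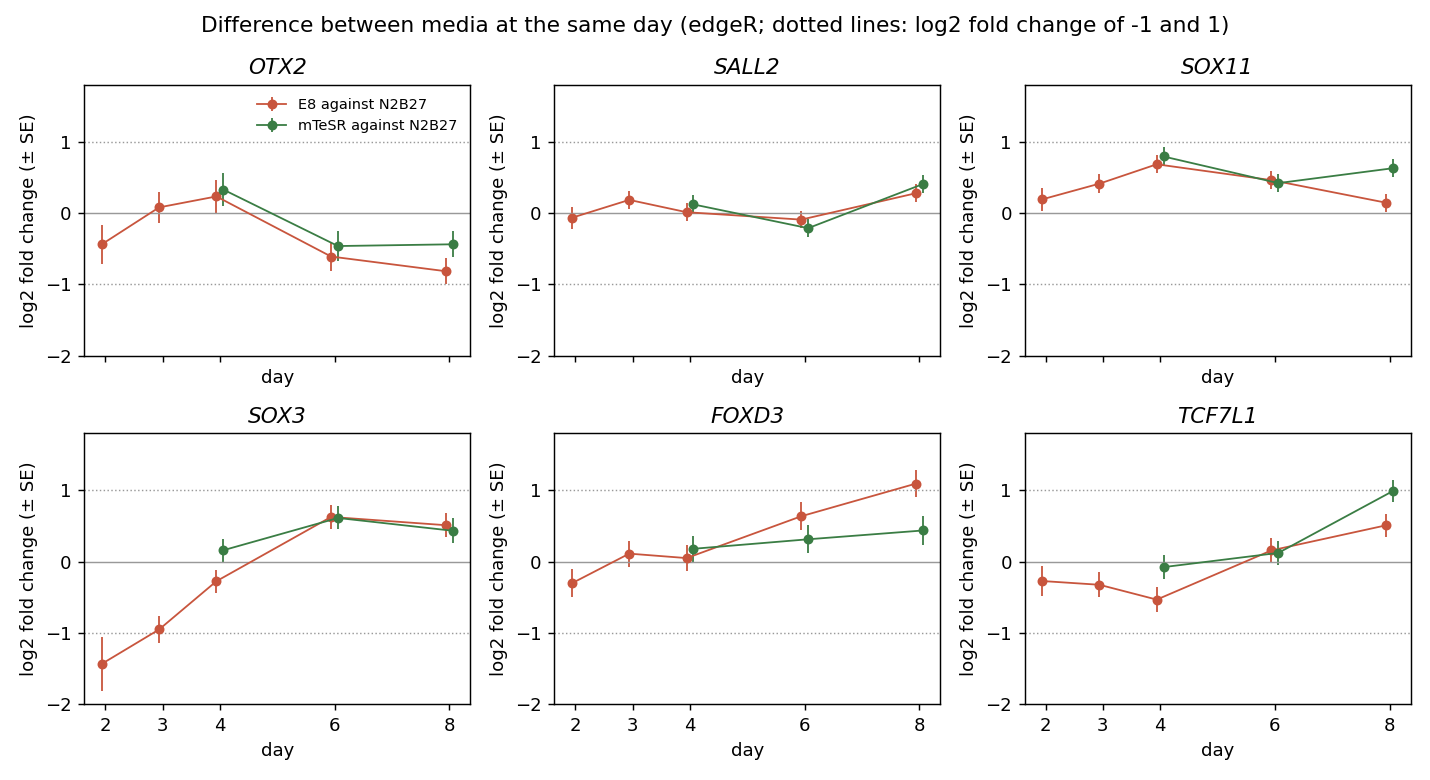
Difference between media at the same day (vertical axes, log2 fold change from edgeR, bars ± SE) of E8 and of mTeSR, each against N2B27, for the 6 tested factors by day (horizontal axes). SOX3 crosses from -1.43 at day 2 to 0.63 at day 6 for E8 against N2B27, FOXD3 climbs to 1.10 at day 8, and OTX2 lies at -0.81 at day 8.

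A test of the whole course asked whether changes after the first shared day differed between media. Over days 2 to 8 in E8 and N2B27 the edgeR adjusted p was 3.91e-05 for SOX3, 0.00405 for FOXD3, 0.0143 for TCF7L1 and 0.0470 for OTX2, while SOX11 (0.186) and SALL2 (0.423) did not pass. At this threshold 11% of all genes passed. Over days 4 to 8 in the 3 media TCF7L1 passed (adjusted p = 0.00712; 3.24% of genes), and the others had 0.0977 for SOX3, 0.113 for FOXD3, 0.166 for OTX2, 0.184 for SOX11 and 0.237 for SALL2. OTX2 lay close to the threshold, and its adjusted p was 0.0514 with the replicate number as a block and 0.181 in the DESeq2 likelihood ratio test. It did not pass without any 1 library of E8 days 3 to 8 or N2B27 days 4 and 6, nor without N2B27 day 3 replicate 1 or day 8 replicate 1 (adjusted p from 0.0540 to 0.144). TCF7L1 lost both calls without N2B27 day 4 replicate 1 or N2B27 day 8 replicate 1, and SOX11 passed both without E8 day 8 replicate 2 (adjusted p = 0.0311 and 0.0214).

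Some markers of other lineages were called higher at day 8, when OTX2 had its highest mean in all 3 media. TCF7L1 had its highest mean at day 8 in E8 and mTeSR, but not in N2B27. The shares of all tested genes called at day 8 in N2B27, E8 and mTeSR were 16.9%, 18.2% and 16.9% higher and 7.03%, 9.24% and 8.2% lower. The summed level of the 5 endoderm markers was 6.15 to 11.4 CPM in naive libraries, 143 to 158 CPM in N2B27 at day 8, 80.9 to 82.8 CPM in mTeSR and 14.6 to 18.5 CPM in E8. The 5 mesoderm or streak markers summed to 4.10 to 21.8, 219.7 to 291, 147 to 193 and 35.6 to 38.1 CPM in the same groups. The 6 trophectoderm or amnion markers summed to 9.96 to 18.4 CPM in naive libraries, 63.4 to 76.9 in N2B27, 12.9 to 16.6 in mTeSR and 14.99 to 20.5 in E8 at day 8, and the 6 neural crest markers to 25.7 to 38.9, 69.0 to 81.1, 42.4 to 49.8 and 25.3 to 33.2 CPM. At day 8, every medium had 4 of the 5 tested endoderm markers called higher, and of 3 tested mesoderm markers all 3 were called in N2B27 and mTeSR and 2 in E8. Of 5 tested trophectoderm or amnion markers, N2B27 had 4 called higher, E8 had 1 higher with 2 lower, and mTeSR had 1 lower, and of 5 tested neural crest markers 3 were called higher in N2B27 and mTeSR and 1 in E8. At day 4 the endoderm sums were 4.28 to 6.99 CPM in N2B27, and those of E8 (4.60 to 5.32) and mTeSR (5.18 to 6.91) were like them. The mesoderm or streak sums at day 4 were already 60.4 to 60.8 CPM in N2B27 of Ex1, 31.5 to 41.4 in N2B27 of Ex2, 32.0 to 33.5 in XAV and 48.1 to 52.5 in FAX, against 9.19 to 11.04 in E8 and 15.1 to 18.2 in mTeSR. The part of these markers in the levels of OTX2 and TCF7L1 was not tested. Of 10 neural markers 4 could be tested, and 3 were called higher and 1 lower in every medium at day 8. Those called higher had group means of at most 5.22 CPM at day 8. The 10 neural markers summed to 7.97 to 13.7 CPM in naive libraries. At day 8 the sums were 14.6 to 17.2 CPM in N2B27, 10.04 to 10.4 in mTeSR and 10.6 to 11.1 in E8. Of the 10, 5 were at the floor in N2B27 and in E8 and 6 in mTeSR.

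At day 4 in Ex2, XAV939 alone (XAV) or with FGF2 and Activin A (FAX) was compared with N2B27. Tankyrase inhibition stabilises AXIN and so lowers WNT/β-catenin signalling, and Activin A signals through SMAD2 and SMAD3. SOX3 was the factor that differed, with 71.9 and 75.9 CPM in N2B27, 41.7 and 51.0 in XAV, and 42.8 and 38.6 in FAX. Both pairs lay below the N2B27 pair, and the log2 fold change was -0.67 ± 0.16 in XAV (adjusted p = 0.0201, 95% interval -0.99 to -0.36) and -0.86 ± 0.17 in FAX (adjusted p = 0.00369, interval -1.19 to -0.54), neither past the fold limit. The N2B27 pair of Ex1 at day 4 held 52.3 and 47.5 CPM and thus lay nearer to these values than that of Ex2 did. No factor was called in XAV (0.57% of genes), in FAX (0.336%) or between FAX and XAV (0.012%).

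The remaining factors had the following values in N2B27, XAV and FAX of Ex2. SOX11 held 155 and 143, 195 and 208, and 144 and 162 CPM, and its difference in XAV was 0.43 ± 0.13 (adjusted p = 0.114, interval 0.18 to 0.69). FOXD3 held 38.8 and 42.1, 48.3 and 45.0, and 36.7 and 28.6 CPM, with 0.20 in XAV (adjusted p = 0.835, interval -0.16 to 0.57) and -0.31 in FAX (adjusted p = 0.731, interval -0.69 to 0.07). Both XAV pairs lay above both other pairs, without passing the test. OTX2 held 5.99 and 6.66, 4.83 and 4.98, and 5.35 and 4.73 CPM, with -0.37 in XAV (adjusted p = 0.786, interval -0.91 to 0.17) and -0.33 in FAX (adjusted p = 0.849, interval -0.89 to 0.23). SALL2 held 100.05 and 97.8, 108 and 108, and 94.5 and 97.5 CPM, with 0.12 in XAV (interval -0.13 to 0.38) and -0.04 in FAX (interval -0.30 to 0.21). TCF7L1 held 27.4 and 21.9, 22.9 and 19.5, and 26.7 and 24.4 CPM, with -0.21 in XAV (interval -0.57 to 0.14) and 0.06 in FAX (interval -0.30 to 0.41). These intervals show which differences the libraries left possible, and a p that misses the threshold does not show that the media act alike.

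Against the 6 naive libraries the same 4 factors that led in N2B27, SOX11, SOX3, FOXD3 and SALL2, were called in XAV (10.5% of genes called higher) and in FAX (10.3%). OTX2 had 0.21 ± 0.31 in XAV (adjusted p = 0.654) and 0.25 ± 0.33 in FAX (adjusted p = 0.603), and TCF7L1 had 0.13 ± 0.24 and 0.40 ± 0.24. With the naive cells of Ex2 alone, all 6 tested factors were called in XAV (11.5% of genes) and in FAX (12%), OTX2 with 1.66 ± 0.39 (adjusted p = 0.00092) and 1.70 ± 0.40 (adjusted p = 0.000926) and TCF7L1 with 1.13 ± 0.22 and 1.40 ± 0.22. In that comparison SOX3 stood against 1 count in 2 naive libraries, with a ratio of 303 in XAV (exact 95% interval 54.2 to 12002) and 266 in FAX (interval 47.4 to 10525), counting error only. POU3F1 had 7 counts in XAV, 5 in FAX and 3 in N2B27 of Ex2.

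**Figure D5:**
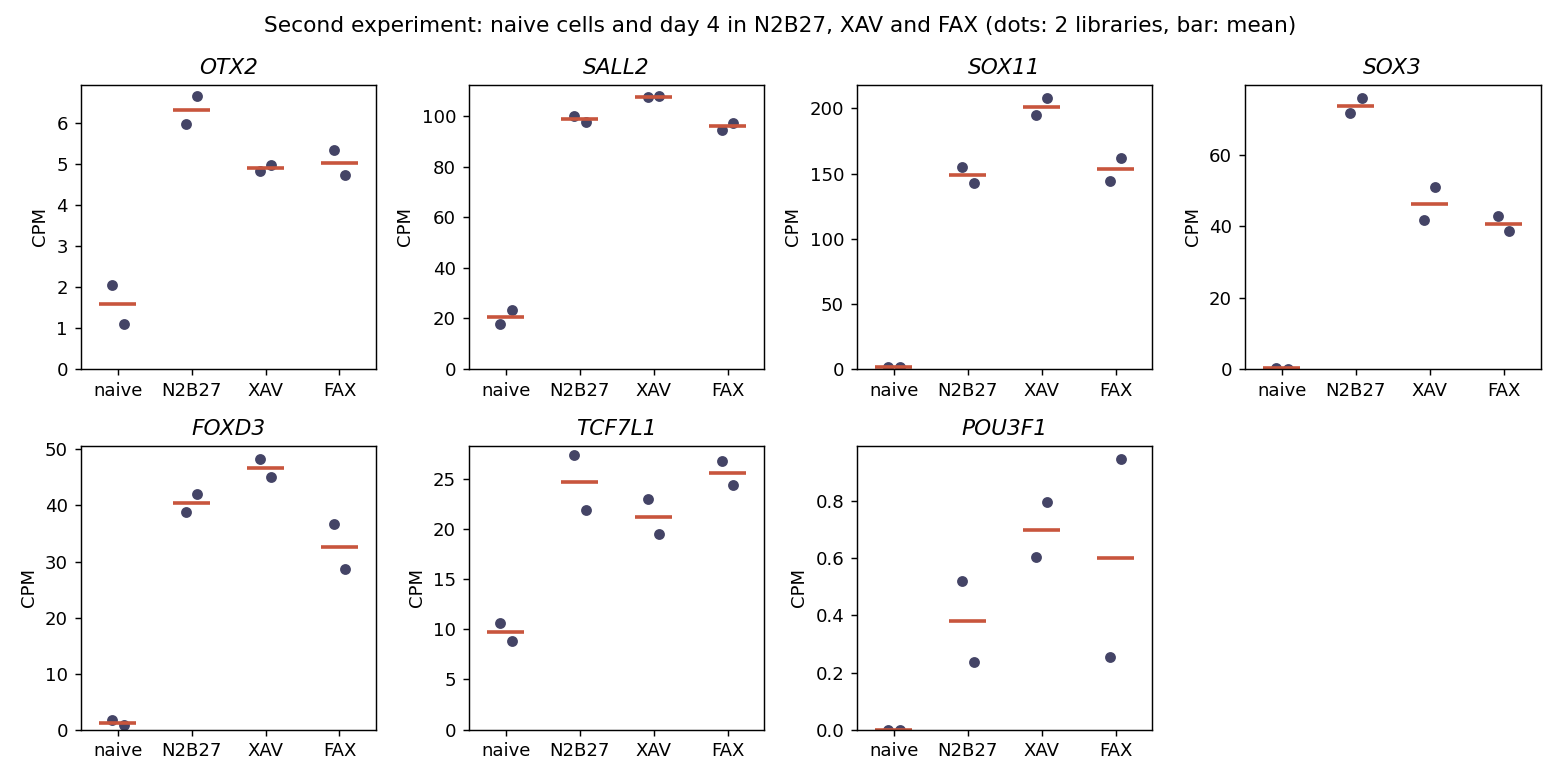
Levels in CPM (vertical axes from 0) of the 7 factors at day 4 in the N2B27, XAV and FAX libraries of Ex2 beside their naive libraries, with a point for each library and a bar at the mean. SOX3 is highest in N2B27 (71.9 and 75.9 CPM), and the N2B27, XAV and FAX pairs of OTX2 lie between 4.73 and 6.66 CPM, above the naive pair at 2.05 and 1.11 CPM.

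The naive libraries of the 2 experiments differed in 3 of the 6 factors. Naive cells on Geltrex in Ex2 had less OTX2 (-1.95 ± 0.38, adjusted p = 0.000506), TCF7L1 (-1.22 ± 0.22, adjusted p = 0.000189) and SOX3 (-2.98 ± 0.96, adjusted p = 0.0323) than those in Ex1, where 2.34% of all genes were called lower. The SOX3 value rested on 1 count against 14, and its call was lost without any of 3 of the 4 libraries. It was also lost with no filter (edgeR adjusted p = 0.0586) and in DESeq2 (0.131). The labels date the naive libraries of Ex2 to day 0, although their names carry a day 4 mark. The coating made no called difference in Ex1 (0.048% of genes), and N2B27 day 4 cells of both experiments gave none either (1.01% of genes), with SOX3 at 0.57 ± 0.16 (adjusted p = 0.0367). Naive FOXD3 in Ex1 was 5.76 and 6.77 CPM on serum and 2.02 and 3.43 CPM on Geltrex, so these pairs lay apart. The SOX11 pairs lay apart in the same direction, and those of OTX2, SALL2 and SOX3 in the other. The change from naive cells on Geltrex to N2B27 day 4 was larger in Ex2 for OTX2 by 1.69 ± 0.47 (adjusted p = 0.0150) and for SOX3 by 3.55 ± 0.95 (adjusted p = 0.0127), against 2.85% of genes called higher. The OTX2 call was lost with no filter (adjusted p = 0.0734), in DESeq2 (0.0695), and without replicate 2 of naive cells on Geltrex in Ex1 (0.0518) or Ex2 (0.174) or of N2B27 day 4 in Ex2 (0.0569). The SOX3 call was lost in DESeq2 (0.0911) and without replicate 2 of naive cells on Geltrex in Ex2 (2.53, adjusted p = 0.1405).

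Other regulators of the formative or primed state gave the surroundings of these factors at day 8. Of 14 genes on that list, the same 9 were called higher in all 3 media, namely ZIC2, ZIC5, ETV1, ETV4, ETV5, GRHL2, HMGA2, DNMT3B and HES6. The median of the list was 1.35 in N2B27 and 1.87 in E8 on the log2 scale, and NR6A1 was called lower in E8. ZIC2, a zinc finger factor of the epiblast and neural plate, had 0.826 ± 0.165 CPM in naive cells (n = 6), 147 ± 10.2 CPM in N2B27 and 73.0 ± 2.27 in E8 (n = 2). ETV5, an ETS factor downstream of FGF signalling, went from 0.938 ± 0.691 to 95.7 ± 3.57 CPM in N2B27, and HMGA2 from 14.9 ± 5.39 to 247 ± 20.6 CPM. The same days gave 16.9%, 18.2% and 16.9% of all genes higher and 7.03%, 9.24% and 8.2% lower.

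Of 20 listed paralogs of the 7 factors, 11 could be tested at day 8, and 6 were called higher and 1 lower in N2B27 (median 1.35), 5 higher and 1 lower in E8 (median 1.07) and 6 higher in mTeSR (median 1.82). The background in these media was 16.9%, 18.2% and 16.9% of genes higher and 7.03%, 9.24% and 8.2% lower. SALL1 rose from 2.37 ± 0.940 to 30.3 ± 6.63 CPM in N2B27 and SALL3 from 6.54 ± 2.62 to 35.8 ± 2.29 CPM, both Spalt genes like SALL2. FOXD1, near the floor in naive cells (0.164 ± 0.214 CPM), held 11.1 ± 2.65 CPM in N2B27 at day 8, 7.65 ± 3.49 in E8 and 18.2 in both mTeSR libraries. Among POU3F1's relatives, POU3F2, POU3F3 and POU3F4 did not pass the filter on low counts. LEF1, a TCF family member that rises with WNT signalling, was called in N2B27 but not in E8 or mTeSR (2.96 ± 1.12 CPM in N2B27 against 0.0738 ± 0.181 in naive cells), and it was lower in E8 than in N2B27. E8 held 0.447 ± 0.367 CPM (edgeR adjusted p = 0.114 against naive cells) and mTeSR 0.547 ± 0.378 CPM (0.0720), near the floor. The missing calls alone do not show that media differed.

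Of 14 naive transcription factors tested at day 8, 7 were called lower and 1 higher in N2B27, 7 lower in E8, and 6 lower and 1 higher in mTeSR. In these media 7.03%, 9.24% and 8.2% of all genes were called lower and 16.9%, 18.2% and 16.9% higher. SPIC went from 45.3 ± 13.3 CPM in naive cells to 0 CPM in N2B27 at day 8 (n = 2), and KLF4 from 112 ± 45.7 to 14.0 ± 1.69 CPM in N2B27 and 61.4 ± 4.88 CPM in E8, where the change was not called. ESRRB, the gene called higher, held 1.11 ± 0.296 CPM in N2B27 and 2.62 ± 0.139 CPM in mTeSR against 0.180 ± 0.359 in naive cells. Its N2B27 level lay close to the floor (edgeR adjusted p = 0.0390). Of 5 general pluripotency genes, LIN28A alone was called, higher in each medium, where 16.9%, 18.2% and 16.9% of all genes were called higher. It had 264 ± 41.0 CPM in naive cells and 574 ± 64.0, 575 ± 52.3 and 690 ± 1.54 CPM in N2B27, E8 and mTeSR.

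Each factor's closest profiles were found by Pearson r of mean log2 CPM over the 16 levels of medium and day among 11284 genes with at least 10 CPM in some level. The nearest gene was PTPRZ1, a receptor tyrosine phosphatase, for SOX11 (r = 0.990), LITAF for SALL2 (0.989), VRTN for SOX3 (0.979), FOXD3-AS1 for FOXD3 (0.975), ACO1 for OTX2 (0.932) and RRAGD for TCF7L1 (0.919). Next came PHLDA1 and PARP8 for SOX11, NNAT and DPYSL3 for SALL2, SLC7A3 and LAMA4 for SOX3, OAZ2 and SFRP2 for FOXD3, CLTRN and EIF2AK2 for OTX2, and PWAR5 and PURPL for TCF7L1. Among the factors, SALL2 was nearest to SOX3 (r = 0.944) and SOX11 (0.927), and OTX2 to TCF7L1 (0.754), while OTX2 and FOXD3 had 0.288. The rank correlation (Spearman rho) of these pairs was 0.729, 0.788, 0.774 and -0.0294 in the same order. The levels share 1 cell line and most share 1 experiment, with neighbouring days of the same medium among them, so these values are descriptions. PTPRZ1 had 0.0369 ± 0.0904 CPM in naive cells (n = 6), 26.6 ± 3.09 at day 2 in N2B27 and 133 ± 7.34 at day 8 in mTeSR (n = 2). The 250 bases before each start differed widely in base composition, from 46.0% GC and 3 CpG for SALL2 to 80.8% and 36 for POU3F1, with 67.6% and 24 for FOXD3, 72.0% and 24 for TCF7L1 and 61.6% and 17 for SOX3, where the medians over 35116 promoters were 58.0% and 11. OTX2 had 2 listed starts, with 7 and 4 CpG. A search on both strands for TAATCC (5.62% of promoters), CTTTGAT (2.26%), ATTTGCA (3.67%) and ACAATG (9.29%) found 1 match, ACAATG at position -89 of SALL2, which is a description and not a site.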

How the data were processed

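Raw counts per gene of all 38 libraries were taken from the deposited table (Lexogen QuantSeq 3′ mRNA libraries). According to the methods and the submitters' processing notes, the authors made these counts with nf-core/rnaseq, STAR 2.7.10a, Salmon 1.9.0 and tximport on hg38, after FastQC 0.11.9, and used DESeq2. The strand setting and annotation release are not given in the sources used here.

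Groups were taken from the labels. In R 4.3.3, edgeR 4.0.16 kept 16674 genes with filterByExpr, holding 99.65% of the counts, scaled them by TMM and ran quasi-likelihood tests. Comparisons against naive cells used a fit with 16 levels of medium and day (6 naive libraries, 4 of N2B27 day 4), and all others a fit with 19 groups. Adjusted p-values cover all 16674 genes of a comparison. CPM, SE and SD are those of the text, and ratios with 1 to 3 counts carry exact 95% intervals. The scripts were tested on simulated data.

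The members, the gene lists and the tests were chosen with earlier results of these data known. Named genes were the 7 members, at most 4 genes with the largest changes per list among those called at day 8 in N2B27, the 3 genes nearest in profile to each member, and overlapping genes. NR6A1, 5 further formative regulators and the untested POU3F1 relatives were named after their values were seen. For 1 gene of the list of formative regulators results are not reported here, and its counts and medians leave that gene out. The alternatives were RLE scaling and library totals, other filters, DESeq2 1.42.0, fits to the compared libraries alone, other naive libraries, the experiment as a covariate, the replicate number as a block, and leaving out each library. Positions are from GENCODE on GRCh38, looked up by symbol, and 6 members had a promoter entry.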

Additional observations from a re-analysis of the deposited data

Results flagged for a closer look

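POU3F1 in naive cells had 0.224 CPM (1 count) in replicate 1 of Ex1 on Geltrex and 0 in the other 5 naive libraries, so the flag rests on 1 count against tied values of 0, where any count would be flagged. It was 1 flag in 14 groups of libraries tested, and chance flags about 1 in 20 groups.

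A set of 4 courses differed between media over days 2 to 8 in E8 and N2B27, by the edgeR test of the difference: SOX3 (adjusted p = 3.91e-05), FOXD3 (adjusted p = 0.00405), TCF7L1 (adjusted p = 0.0143) and OTX2 (adjusted p = 0.0470). In that test 11% of all genes passed. TCF7L1 also differed over days 4 to 8 among N2B27, E8 and mTeSR (adjusted p = 0.00712), where 3.24% of all genes passed. The OTX2 course did not pass with the replicate number as a block (adjusted p = 0.0514) or in DESeq2 (0.181), nor without 1 library in many cases, and TCF7L1 passed neither test without N2B27 day 4 replicate 1 or N2B27 day 8 replicate 1.

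The change from naive cells to N2B27 day 4 differed between the experiments by a log2 fold change of 1.69 for OTX2 (edgeR adjusted p = 0.0150) and 3.55 for SOX3 (edgeR adjusted p = 0.0127). For SOX3 it rested on naive libraries with 1 and 0 counts. Neither passed in DESeq2 (0.0695 for OTX2 and 0.0911 for SOX3) or without replicate 2 of naive cells on Geltrex in Ex2 (0.174 and 0.1405), and OTX2 did not pass with no filter (0.0734) or without replicate 2 of naive cells on Geltrex in Ex1 (0.0518) or of N2B27 day 4 in Ex2 (0.0569).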

How the results depend on the processing

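Of 3754 values of single members under other settings, 3680 kept their side of the threshold, 57 lost a call, 17 gained one and no called value reversed. Of the 3680, 75 changed sign with no call under either setting. Counts of called factors that moved by over 1.5 times were as follows. In fits to the compared libraries alone, E8 against N2B27 at day 2 had 0 calls, E8 day 4 against day 3 had 0, and all comparisons between media had 1 against 2; fewer libraries then estimated the spread. Smaller moves there were OTX2 not called in E8 from day 2 to day 3 (adjusted p = 0.0908), in E8 at day 4 (0.0609) and in mTeSR at day 4 (0.0509) against naive cells, and SOX3 not tested in E8 at day 2. With the experiment as a covariate OTX2 was not called in E8 at day 4 (0.91), and TCF7L1 was called in FAX (1.00). With no filter the difference between experiments in the change to N2B27 day 4 had 1 call against 2, and all comparisons between experiments and coatings had 3 against 5. DESeq2 gave 0 and 2 for these, and the cause was not tested. The onset of OTX2 in E8 was day 6 with naive cells of the same experiment, with the experiment as a covariate and in fits to the compared libraries alone. OTX2 in N2B27 moved to day 3 with naive cells of the same experiment, where the day 4 value averaged both experiments. In mTeSR the onset of OTX2 moved to day 6 with naive cells of the same experiment or in fits to the compared libraries alone. With days 0, 4, 6 and 8 only, 10 of 17 places in the half-rise order were kept.

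Leaving out 1 library gave these lowest and highest counts of called factors where the count moved by over 1.5 times. Between media in all they were 1 to 4, at day 2 between E8 and N2B27 0 to 1, at day 3 0 to 1, at day 8 0 to 2, and at day 8 between mTeSR and N2B27 0 to 1. They were 2 to 4 for E8 day 2 against naive cells and for E8 day 3 against day 2, 0 to 1 for N2B27 day 8 against day 6 and 0 to 2 for mTeSR day 8 against day 6. Between experiments and coatings they were 2 to 5, and for the change to N2B27 day 4 in Ex2 against Ex1 0 to 2, with the lowest values without replicate 2 of naive cells on Geltrex in Ex2. Smaller moves were 4 to 5 for N2B27 day 2, E8 day 4 and mTeSR day 4 against naive cells, each through OTX2, and 2 to 3 between the naive cells of both experiments, through SOX3. Course tests gave 2 to 6 in all, 2 to 4 over days 2 to 8 and 0 to 2 over days 4 to 8. The onset in E8 ranged over days 3 to 6 for OTX2 (day 6 without either naive library of Ex2) and days 2 to 3 for SALL2 and SOX3, and in mTeSR over days 4 to 6 for OTX2 (day 6 without mTeSR day 4 replicate 2).

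Same-numbered libraries did not deviate together (7 of 171 pairs of groups had a correlation over 0.1, median 0.003), so the numbers do not pair the samples. With the replicate block 1 call changed, the OTX2 course over days 2 to 8 (adjusted p = 0.0514). Depth limits POU3F1 and naive SOX3, whose levels lay near 3 counts, and the order before day 2 in any medium and before day 4 in mTeSR could not be read from these samples.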
